A study of Mus musculus with 8 samples.

Results

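The S100 genes encode small calcium-binding proteins, and 10 of them are described here in mouse epidermis: S100a1, S100a4, S100a6, S100a7a, S100a8, S100a9, S100a10, S100a11, S100a14 and S100a16. They were taken by name, and all 10 were found among the 21690 genes of the expression data. Whole epidermis was taken from the back skin of pups at postnatal day 5 and sequenced as RNA in 8 libraries. The 4 Experimental libraries came from pups that carried K5rTA and tetOCre, a Cre recombinase switched on by doxycycline where the keratin 5 promoter drives its activator, on an Esrp1flox/flox; Esrp2-/- background. The 4 Control libraries came from Esrp1flox/flox; Esrp2-/- pups, with no transgene named in their genotype. The mothers of both groups ate chow with a high dose of doxycycline from embryonic day 17. Both groups thus lacked Esrp2 and shared the drug, and the comparison is that of deleting Esrp1 in keratin 5 cells, together with the transgenes. ESRP1 and ESRP2 are epithelial proteins that bind RNA and steer splicing. Each library is called a biological replicate by the labels, which give neither litter, sex nor batch.

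An S100 protein is a short chain with paired EF-hands, loops that hold calcium, and it works mostly as a dimer that grips a partner protein once calcium is bound. Most of the mouse genes sit side by side on chromosome 3, on both sides of the epidermal differentiation complex, the stretch that holds the genes of the cornified envelope. In skin the family does several jobs. S100A8 and S100A9 form calprotectin, a metal-binding alarm protein that stressed keratinocytes and neutrophils release, and S100A7 relatives are chemoattractants of inflamed epidermis. S100A10 and S100A11 bind annexins at membranes, and S100A14 and S100A16 are abundant in epithelia.

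None of the 10 genes passed the test for a difference between Experimental and Control epidermis. The test was limma on log2(TPM + 1) over the 10682 genes with a mean of at least 1 TPM (TPM is the length-corrected share of a transcript in its library, scaled to a fixed total), with a threshold of adjusted p under 0.05 (Benjamini-Hochberg). Among all tested genes 2.46% passed. At an unadjusted p under 0.05 there were 3 S100 genes, S100a1, S100a11 and S100a14, against 16.9% of all tested genes. S100a14 alone had groups that did not overlap: it was lower in each Experimental library than in any Control library. Groups failed to overlap for 12.6% of all tested genes, and 9.94% lay lower in Experimental libraries without overlap, so 1 of 10 is close to the background. The median log2 change of the 10 was -0.17 and that of all tested genes -0.18. Changes were above 0 for 3 of the 10 genes (S100a4, S100a10 and S100a11) and for 25.5% of all tested genes.

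Keratinocyte transcripts were abundant in every library. Krt1 and Krt10, keratins of the suprabasal layers, stood at 15355 to 22165 and 20206 to 29564 TPM in Experimental libraries and at 6279 to 15218 and 10269 to 20967 TPM in Control libraries. The Control libraries differed widely among themselves in the keratins of the basal layer: Krt5 read 858, 673, 1047 and 606 TPM in Experimental libraries 1 to 4 and 3102, 2617, 1019.7 and 316 TPM in Control libraries 1 to 4. Among Control libraries, summed levels of 12 hair shaft and follicle genes ran the other way, at 6172, 12997, 16816 and 46839 TPM. In Experimental libraries these genes summed to 11359, 1462, 7769.9 and 6220.1 TPM. All 5 endothelial markers were at 0 everywhere. Of 9 fibroblast markers, Lum and Pdgfra were at 0 everywhere. Among the others, Postn ran from 43.4 to 56.1 TPM in Experimental and from 13.9 to 111.5 TPM in Control libraries. Vim ran from 31.5 to 55.2 TPM in Experimental and from 20.7 to 82.7 TPM in Control libraries. Mitochondrially encoded transcripts took the largest share of TPM in Experimental libraries 2 and 4, 15.3% and 14.6%, while the other 6 libraries held 8.91% to 10.5%. TPM carries no sequencing depth, so the precision of a single value is unknown. In whole tissue, fewer cells of a type and less RNA per cell cannot be told apart.

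Levels of the 10 genes spanned about 2 orders of magnitude. In Experimental epidermis S100a11 led with a mean of 2773 TPM, above S100a14 (995 TPM), S100a6 (789 TPM), S100a16 (772 TPM) and S100a10 (387 TPM). In Control epidermis the order of those leading genes was the same, with 1674 TPM for S100a11, 1518 TPM for S100a14, 898 TPM for S100a6, 847 TPM for S100a16 and 260.4 TPM for S100a10. The other 5 lay between 27.7 and 72.2 TPM in Experimental and between 37.1 and 100.4 TPM in Control epidermis. Neighbours in that lower part overlapped in their ranges throughout. Among the leading genes, S100a11 stood clear of S100a14 in Experimental libraries but overlapped it in Control libraries, where S100a14 in turn stood clear of S100a6. The 4 most abundant genes took 89.4% ± 0.21 of the members' summed TPM in Experimental and 89.4% ± 0.89 in Control libraries (SD, n = 4 each). That sum was 5963 ± 426 TPM in Experimental and 5522.5 ± 512 TPM in Control libraries, with ranges that overlapped.

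**Figure D1:**
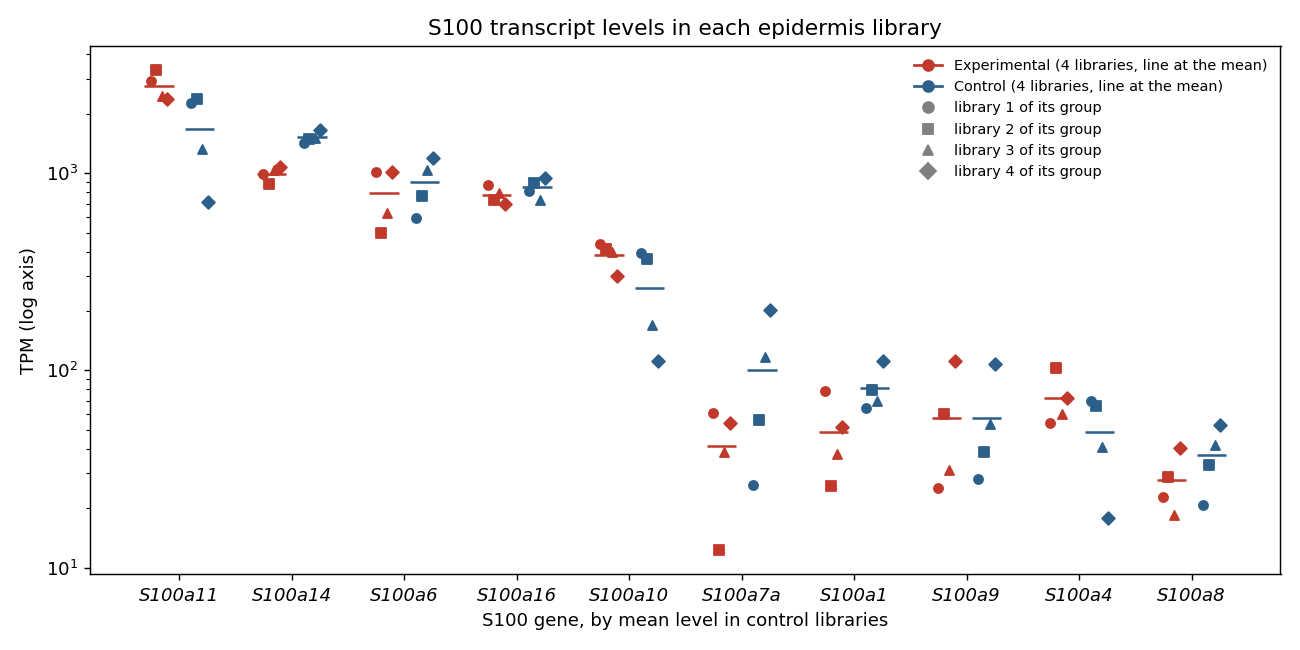
TPM of each S100 gene (log axis) in the 4 Experimental libraries (red, left of each pair) and the 4 Control libraries (blue, right); a line marks the mean of the group and the marker shape the library. S100a14 is the gene whose groups do not overlap, and S100a7a has the widest spread of Control points (7.78-fold).

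S100a14 encodes an S100 protein of stratified epithelia with a degenerate calcium-binding loop. The gene (ENSMUSG00000042306.11) lies on the plus strand of chr3:90526856-90528837 (GRCm38, GENCODE M21). It read 995, 883, 1033 and 1069.8 TPM in Experimental libraries 1 to 4, against 1424, 1483, 1502 and 1665 TPM in Control libraries 1 to 4. Each Experimental library was below each Control library, and the highest and lowest values within a group differed by 1.21-fold in Experimental and 1.17-fold in Control epidermis. It averaged 995 ± 81.0 TPM in Experimental and 1518 ± 103 TPM in Control epidermis (SD, n = 4 each), 1.53-fold less in Experimental. The log2 change was -0.61 (SE 0.17, 95% interval -0.98 to -0.24), and the adjusted p in limma was 0.0928, which did not pass. An equal or lower log2 change was found for 10.4% of all tested genes. Leaving out any 1 library kept the log2 change between -0.65 and -0.55 with no adjusted p under 0.0776. After median centring of each library, which took the median of all tested genes from -0.18 to 0.03, it was -0.40 with adjusted p = 0.271 in limma. None of the authors' 748 genes with lower expression, the only direction their deposited table holds, is an S100 gene.

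S100a16, the next gene along, is a broadly expressed relative. It read 868, 731, 792 and 695 TPM in Experimental libraries and 812, 892, 735 and 949 TPM in Control libraries. The groups overlapped, and the log2 change was -0.13 (95% interval -0.51 to 0.25, limma adjusted p = 0.715). The ratio of S100a14 to S100a16 within a library, which no scaling between libraries can alter, was 1.15, 1.21, 1.30 and 1.54 in Experimental and 1.75, 1.66, 2.04 and 1.75 in Control libraries. This ratio was chosen after the values were seen and is given without a test.

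S100a1, best known from heart and skeletal muscle, is the first gene of the cluster and lies on the minus strand at chr3:90511034-90514392. It read 78.3, 26.0, 37.8 and 51.9 TPM in Experimental and 64.2, 79.7, 69.9 and 111 TPM in Control libraries. All but Experimental library 1 lay below every Control library. It averaged 48.5 ± 22.5 TPM in Experimental and 81.3 ± 21.0 TPM in Control libraries (SD, n = 4 each). On the log2 scale it differed by -0.81 (SE 0.31, limma adjusted p = 0.219). S100a13 is a gene outside the 10 whose protein takes part in the export of FGF1 without a signal peptide. By the RefSeq starts of transcription, S100a13 begins 105 bases from S100a1, on the other strand. It read 14.9, 13.1, 11.9 and 16.1 TPM in Experimental and 24.2, 23.2, 18.1 and 17.1 TPM in Control libraries. Its groups did not overlap, and it did not pass either (log2 change -0.52, SE 0.18, limma adjusted p = 0.169).

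The promoter window of S100a1 is printed because it is shared: 204 of its 300 bases also belong to the window of S100a13, read from the opposite strand. The window runs from 250 bases before the start of transcription to 50 after it (RefSeq, GRCm38.p6, minus strand of chr3:90514281-90514580). A total of 4 motifs were searched on both strands: AP-1 as TGANTCA, C/EBP as TTGCNNAA, STAT as TTCNNNGAA and Grainyhead as AACNNGTT, with capitals for a match. None of them occurs in it, so it stands in lower case throughout.
S100a1: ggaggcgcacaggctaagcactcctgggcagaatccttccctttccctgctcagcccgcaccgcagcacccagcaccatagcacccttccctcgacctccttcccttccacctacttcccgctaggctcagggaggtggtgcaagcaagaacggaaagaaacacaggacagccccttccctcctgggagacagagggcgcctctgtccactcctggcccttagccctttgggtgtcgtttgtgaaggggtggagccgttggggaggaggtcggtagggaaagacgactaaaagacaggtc

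Across the 32851 RefSeq promoter windows of the same length, AP-1 letters occurred in 7.81%, C/EBP letters in 10.8%, STAT letters in 8.30% and Grainyhead letters in 4.20%. RefSeq windows were matched for 8 of the 10 genes, all but S100a10 and S100a14. Of these 8, 4 held no match to any of the motifs (S100a1, S100a4, S100a6 and S100a8).

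S100a11, S100a10 and S100a4 made up the group of genes that averaged higher in Experimental epidermis. S100a11 protein binds annexin A1 and has been described in human keratinocytes as a calcium-dependent brake on growth. The gene (chr3:93520488-93526287, plus strand) read 2929, 3338, 2457 and 2370.5 TPM in Experimental libraries, against 2273.5, 2382.5, 1329 and 712 TPM in Control libraries. Control libraries 1 and 2 were at the level of Experimental library 4, while Control libraries 3 and 4 were well below all others. It averaged 2773 ± 449 TPM in Experimental and 1674 ± 797 TPM in Control libraries (SD, n = 4 each), a ratio of 1.66, and differed on the log2 scale by 0.87 (SE 0.36, 95% interval 0.06 to 1.67, limma adjusted p = 0.255). This change lay above that of 98.7% of all tested genes.

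S100a10 encodes p11, the light chain that joins annexin A2 into a tetramer and does not bind calcium itself. It lies next to S100a11, at chr3:93555080-93564643. It read 435, 413, 398 and 301 TPM in Experimental and 394, 366, 169 and 112 TPM in Control libraries. Again Control libraries 1 and 2 fell within the Experimental range and Control libraries 3 and 4 below it. The log2 change was 0.74 (95% interval -0.09 to 1.57, limma adjusted p = 0.350). The ratio of S100a11 to S100a10 was similar in every library, from 6.17 to 8.08 in Experimental and from 5.77 to 7.84 in Control libraries. Of all 45 pairs among the 10 genes, these were the most alike over the 8 libraries, with a mean absolute difference of 0.16 between their centred log2 levels.

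S100a4, also called metastasin, binds non-muscle myosin and is known from fibroblasts, macrophages and Langerhans cells as well as from motile epithelial cells. It read 53.9, 102.5, 60.0 and 72.2 TPM in Experimental and 70.1, 65.6, 40.7 and 17.8 TPM in Control libraries. The groups overlapped, and the difference on the log2 scale was 0.69 (SE 0.40; limma adjusted p = 0.403). Summed levels of 11 macrophage and Langerhans cell markers, led by Cd74, read 269.6, 543, 369.8 and 451 TPM in Experimental and 756, 760.1, 439 and 202 TPM in Control libraries. Those of 9 fibroblast markers, led by Postn, read 79.9, 114, 88.6 and 104 TPM in Experimental and 226, 166, 104 and 34.6 TPM in Control libraries. Postn and Vim made up most of that sum, at 43.4 and 33.6 TPM in Experimental library 1 and 13.9 and 20.7 TPM in Control library 4. The markers Col1a1, Col1a2, Col3a1 and Col6a1 were at 0 in every Experimental library. Within each group S100a4 ranked the libraries as the fibroblast sum did. S100a4 also ranked them as the macrophage and Langerhans cell sum did, apart from Control libraries 1 and 2, which were nearly level. The part of either list in its level was not tested. Of the 31-base words in S100a4 transcripts, 49.2% also occur in Gm42674, an annotated transcript that overlaps it on the same strand, and 48.9% of those of S100a11 occur in other genes, mostly the processed pseudogene Gm12854. No source used here says how reads were divided among them, so the levels of S100a4 and S100a11 are uncertain to that extent.

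The S100a11 window is printed because it was the one member with a pair of AP-1 matches, set here in capitals. It covers chr3:93520246-93520545 on the plus strand (RefSeq, GRCm38.p6). AP-1 factors are dimers of FOS and JUN proteins. The matches lie at positions -136 and -38 from the start of transcription.
S100a11: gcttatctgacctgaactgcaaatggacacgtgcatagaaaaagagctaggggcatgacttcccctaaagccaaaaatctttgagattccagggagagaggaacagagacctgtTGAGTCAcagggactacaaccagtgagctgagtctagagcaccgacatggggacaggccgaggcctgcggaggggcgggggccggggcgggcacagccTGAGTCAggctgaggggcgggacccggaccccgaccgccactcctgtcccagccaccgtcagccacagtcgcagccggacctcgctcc

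S100a16 held the only other AP-1 match among the 8 genes, in the second of its 2 windows. A match is a run of letters, and binding was not measured.

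None of the 3 alarm genes passed. S100a8 (chr3:90668978-90670035, plus strand) encodes calgranulin A, a chain of calprotectin. It read 22.9, 28.7, 18.6 and 40.6 TPM in Experimental and 20.9, 33.2, 41.8 and 52.7 TPM in Control libraries. The ranges overlapped in part, with Control libraries 3 and 4 above every Experimental library, and the gene averaged 27.7 ± 9.55 TPM in Experimental and 37.1 ± 13.5 TPM in Control libraries (SD, n = 4 each). The log2 change of -0.39 had a 95% interval from -1.08 to 0.29 (limma adjusted p = 0.539), which leaves out a rise of 2-fold or more.

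S100a9 (chr3:90692632-90695721, minus strand) encodes calgranulin B, the other chain of calprotectin. It read 25.2, 59.9, 31.4 and 112 TPM in Experimental and 28.1, 38.5, 53.7 and 108 TPM in Control libraries. The groups covered nearly the same range. It averaged 57.1 ± 39.7 TPM in Experimental and 57.0 ± 35.4 TPM in Control libraries (SD, n = 4 each), and the log2 change was -0.06 (95% interval -1.17 to 1.05, limma adjusted p = 0.964). Changes of up to 2-fold in either direction lie inside this interval. The ratio of S100a9 to S100a8 ran from 1.10 to 2.76 in Experimental and from 1.16 to 2.05 in Control libraries.

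S100a7a, the mouse relative of human psoriasin, had the largest log2 change of the 10 and the widest spread. It read 61.0, 12.2, 38.7 and 54.3 TPM in Experimental and 26.1, 55.7, 117 and 203 TPM in Control libraries. Its level differed 4.98-fold among Experimental and 7.78-fold among Control libraries, and the groups overlapped. The log2 change of -1.09 (SE 0.64, 95% interval -2.50 to 0.32) did not pass (limma adjusted p = 0.413). Its highest Control libraries were also those with the highest summed hair genes, and its lowest library, Experimental 2, was the lowest in hair genes; their part in its level was not tested.

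Listed markers of neutrophils, the other main source of calprotectin, were low or at 0, which stands for 1 TPM or less. Of 13 neutrophil markers 10 were at 0 in every library, among them Elane, Mpo, Ly6g, Csf3r and Ngp. The remaining Cxcr2, Mmp9 and Lcn2 summed to 2.37 to 3.44 TPM in Experimental and 1.21 to 2.14 TPM in Control libraries. The number of neutrophils was not measured.

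Promoter windows of S100a8 and S100a9 are shown side by side because their products work as 1 complex (RefSeq, GRCm38.p6). That of S100a8 covers chr3:90668821-90669120 on the plus strand and held no match. The window of S100a9 covers chr3:90695672-90695971 on the minus strand and held a C/EBP match at position -236 and a Grainyhead match at -173 from the start of transcription, both in capitals.
S100a8: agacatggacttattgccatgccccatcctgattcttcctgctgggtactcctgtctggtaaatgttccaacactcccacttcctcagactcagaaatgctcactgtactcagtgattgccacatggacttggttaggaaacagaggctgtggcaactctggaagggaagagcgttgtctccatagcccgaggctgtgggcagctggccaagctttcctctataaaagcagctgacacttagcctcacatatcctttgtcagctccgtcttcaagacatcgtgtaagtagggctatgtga
S100a9: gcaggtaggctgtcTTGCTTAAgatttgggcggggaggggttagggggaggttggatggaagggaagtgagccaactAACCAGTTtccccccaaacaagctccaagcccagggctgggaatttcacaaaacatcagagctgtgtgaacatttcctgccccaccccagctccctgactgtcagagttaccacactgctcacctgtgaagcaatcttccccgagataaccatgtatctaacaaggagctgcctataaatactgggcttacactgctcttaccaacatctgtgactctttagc

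In the window of S100a7a there was a STAT match at position -169 and no other.

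S100a6, or calcyclin, a gene of proliferating and differentiating epithelia whose protein binds annexins and the ubiquitin ligase partner CACYBP, read 1019.7, 495, 627 and 1013.5 TPM in Experimental and 595, 768, 1036.5 and 1193 TPM in Control libraries. Both groups ranged about 2-fold and overlapped. The log2 change was -0.20 (95% interval -0.88 to 0.47, limma adjusted p = 0.755).

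**Figure D2:**
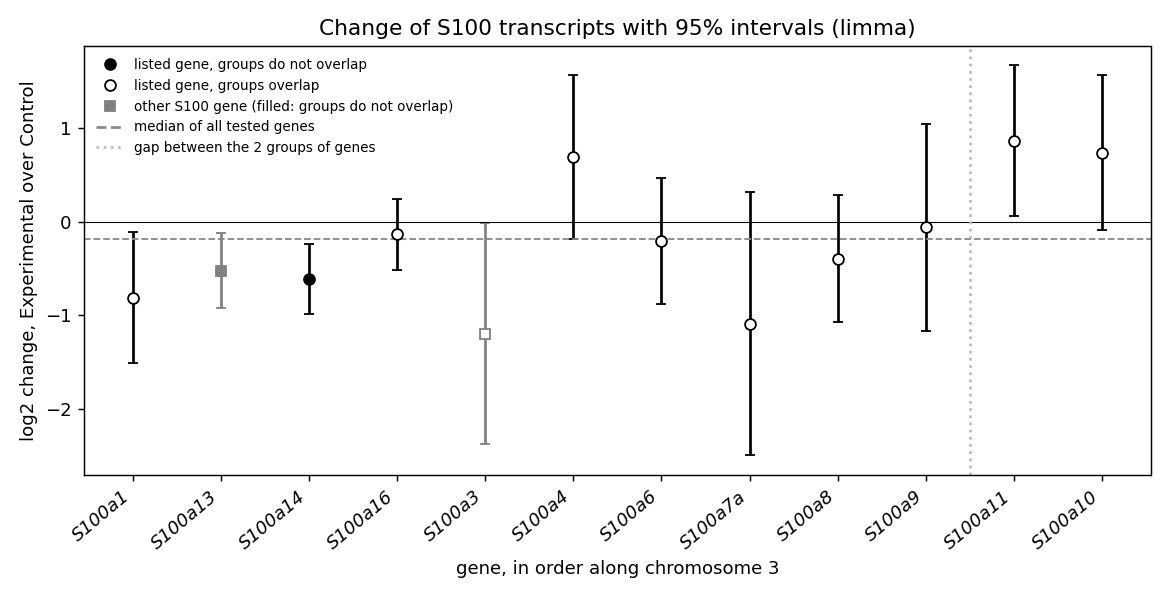
log2 change in limma (Experimental over Control) with its 95% interval for the 10 genes and, in grey, S100a13 and S100a3, in their order along chromosome 3; the dashed line marks the median of all tested genes (-0.18). Filled symbols are genes whose groups do not overlap, S100a14 and S100a13, and the 2 genes right of the dotted line, S100a11 and S100a10, averaged higher in Experimental libraries.

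The genes fell into 2 blocks on chromosome 3. From S100a1 to S100a9 the first block spans 184.7 kb and holds 8 of the 10. S100a11 and S100a10 lie 2.82 Mb farther on, past 60 protein-coding genes, in a block of 44.2 kb. Both genes of the second block had log2 changes above 0, as did 1 of the 8 in the first, S100a4. With so few genes this is a description of position only.

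The spread among Control libraries followed a pattern that the group labels do not explain. The columns carry numbers of unstated meaning: Control libraries 1 and 2 have lower numbers than every Experimental library, and Control libraries 3 and 4 have higher numbers than most. Whether these numbers mark a batch is not known. Compared with Control libraries 1 and 2, Control libraries 3 and 4 had less S100a4, S100a10 and S100a11 and on average more S100a6, S100a7a, S100a8 and S100a9. The pairs were set apart with the values known. Control library 4 was at an extreme of the Control range for all 10 genes, at the bottom for those 3 and at the top for the other 7. The means over Control libraries 1 and 2 against 3 and 4 were 2328 and 1021 TPM for S100a11, 380.1 and 141 TPM for S100a10, and 40.9 and 159.8 TPM for S100a7a. S100a14 and S100a16 moved least, at 1453 and 1583 TPM and at 852 and 842 TPM.

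**Figure D3:**
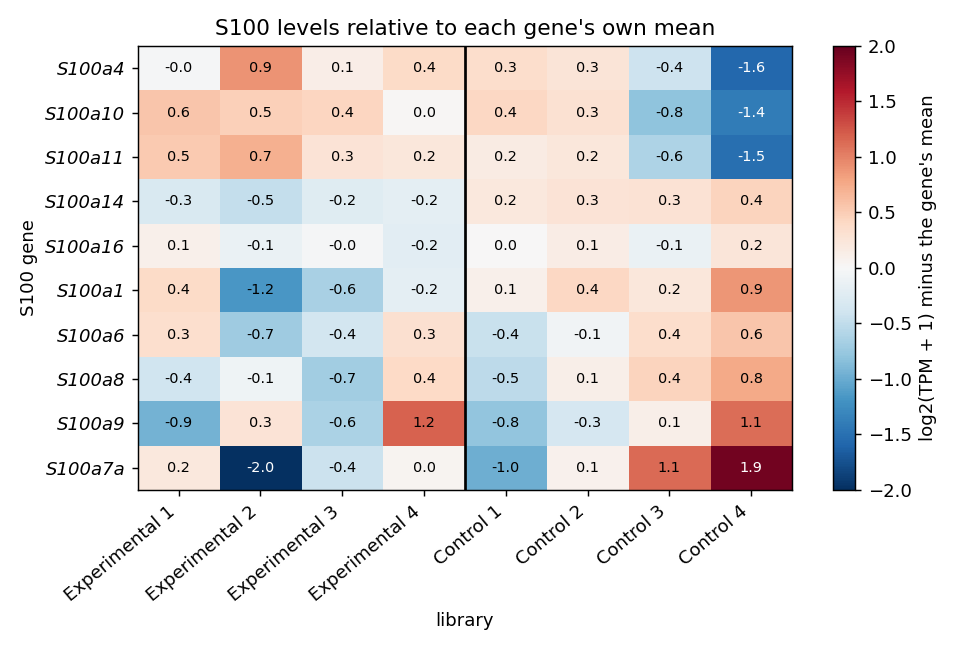
Level of each S100 gene in each library as log2(TPM + 1) minus the gene's mean over the 8 libraries, with Experimental libraries left and Control libraries right of the line. In Control library 4 the top 3 rows are at their lowest and S100a7a is at its highest, and S100a14 is the row in which the sign follows the group in every library.

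The size of several changes rested on which Control libraries were used. Because the pairs were set apart with these levels known, leaving one out fixes the direction in which a gene moves, and the values are a description with no test. Without Control libraries 1 and 2 the log2 changes of S100a4, S100a10 and S100a11 were 1.34, 1.47 and 1.50, in a fit in which 5.19% of all genes passed. Without Control libraries 3 and 4 they were 0.045, 0.012 and 0.24, and that of S100a14 was -0.55, in a fit in which 24.2% of all genes passed. Leaving out Control library 4 alone gave 0.29 for S100a4, 0.40 for S100a10, 0.51 for S100a11 and -0.63 for S100a7a. For S100a7a the log2 change was -2.08 when Control libraries 1 and 2 were left out and -0.10 when 3 and 4 were. With library weights, which gave Control library 2 a weight of 4.65 and Control library 4 a weight of 0.18, S100a1 and S100a14 passed as lower (limma adjusted p = 0.0290 and 0.00291) beside 41.4% of all genes. Over these 3 fits S100a14 stayed between -0.67 and -0.54 and S100a16 between -0.15 and -0.12.

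**Figure D4:**
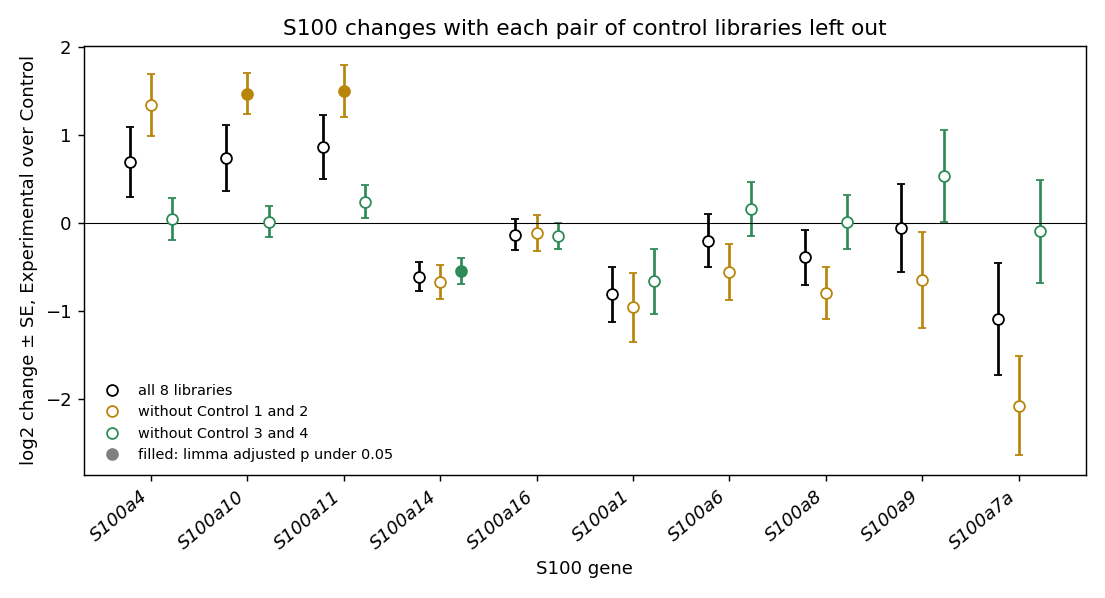
log2 change ± SE (limma, Experimental over Control) of each S100 gene in all 8 libraries (black) and with Control libraries 1 and 2 (yellow) or 3 and 4 (green) left out; filled points have adjusted p under 0.05, which supports nothing here because the pairs were set apart with these levels known. S100a10 and S100a11 are filled without Control libraries 1 and 2 and lie at 0.01 and 0.24 without 3 and 4, and S100a14 is filled without Control libraries 3 and 4.

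Of 7 other S100 genes in the data, S100a2, S100a5, S100b and S100g were at 0 in every library, and S100z did not exceed 1.72 TPM in any. S100a3, a gene of the hair cuticle, was abundant. It read 2141, 328, 664 and 1110.0 TPM in Experimental and 1151, 1584, 2379 and 3305 TPM in Control libraries. Its log2 change of -1.20 (SE 0.53) did not pass (limma adjusted p = 0.286), and it was lowest in Experimental library 2 and highest in Control library 4, as the summed hair genes were.

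Partners of S100 proteins did not pass. Of 15 such genes none was called, and 2 had an unadjusted p under 0.05, against 16.9% of all tested genes. Their median log2 change was -0.24, and that of all tested genes was -0.18. The annexin A2 gene, partner of S100a10, read 688 ± 73.2 TPM in Experimental and 699 ± 274 TPM in Control libraries (SD, n = 4 each). Anxa1, partner of S100a11, read 552 ± 118 TPM in Experimental and 666 ± 114 TPM in Control libraries. Lowest in p were Dlg5, which encodes a polarity scaffold, with 4.93 ± 1.19 TPM in Experimental and 9.14 ± 2.96 TPM in Control libraries (limma adjusted p = 0.133), and Myh14, a non-muscle myosin gene, with 20.0 ± 7.41 TPM in Experimental and 34.9 ± 12.1 TPM in Control libraries (limma adjusted p = 0.246). None of 8 tested receptor genes passed. Bsg, whose product is a receptor for S100A9, read 329 ± 39.9 TPM in Experimental and 329 ± 31.9 TPM in Control libraries (SD, n = 4 each). Tlr4 and Cd14 were at 0 in every library, and Ager, the receptor for advanced glycation end products, was above the floor of 1 TPM in 1 library of each group. Cd36, a fatty acid receptor that binds calprotectin with its lipid cargo, read 2.47, 4.52, 1.32 and 3.03 TPM in Experimental and 11.1, 13.3, 4.23 and 4.86 TPM in Control libraries (limma adjusted p = 0.123). Alcam, a cell adhesion gene, read 10.2 ± 6.08 TPM in Experimental and 16.7 ± 6.08 TPM in Control libraries (limma adjusted p = 0.326).

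A list of 29 genes around the signals known to induce alarm S100 genes held ligands, antagonists, receptors and transcription factors. Of its 25 tested genes 4 rose and none fell, with a median log2 change of 0.25. Of all 10682 tested genes 98 passed as higher and 165 as lower, together 2.46%. The list was chosen with earlier results of these data known, so its count supports no excess over that share. The 4 genes that rose all belong to the interleukin-1 family. Among them, Il1f5 and Il1rn encode antagonists, which block the receptors rather than activate them. Il1f5, which encodes the IL-36 receptor antagonist, read 809.6, 720.1, 919.8 and 950.4 TPM in Experimental and 419.5, 373, 347 and 389.7 TPM in Control libraries. It rose 2.22-fold (log2 change 1.15, SE 0.17, limma adjusted p = 0.00847). Il1rn, the IL-1 receptor antagonist gene, rose 1.88-fold to 138 ± 19.2 TPM in Experimental libraries, against 73.7 ± 9.18 TPM in Control libraries (limma adjusted p = 0.0256). The genes of the agonists IL-36 alpha and IL-36 gamma rose too. Il1f6 averaged 68.9 ± 12.0 TPM in Experimental and 38.0 ± 1.96 TPM in Control libraries (limma adjusted p = 0.0331). Il1f9 averaged 139 ± 27.8 TPM in Experimental and 78.2 ± 5.93 TPM in Control libraries (SD, n = 4 each; limma adjusted p = 0.0443). Il1f8, the IL-36 beta gene, read 145 ± 26.1 TPM in Experimental and 84.2 ± 10.3 TPM in Control libraries and missed the threshold (limma adjusted p = 0.0609).

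Each Experimental library was above every Control library for Il1f5, Il1rn, Il1f6, Il1f8 and Il1f9. The same held near the floor for Il1b, the IL-1 beta gene, which did not pass (log2 change 0.72, limma adjusted p = 0.0649). Il1b read 2.94, 2.17, 2.53 and 2.97 TPM in Experimental and 0, 0, 0 and 1.96 TPM in Control libraries. Groups did not overlap for 9 of the 25 tested genes of the list, against 12.6% of all tested genes. Il1r1, an IL-1 receptor gene, lay lower without overlap (log2 change -0.55, limma adjusted p = 0.183). Because the list was chosen with earlier results of these data known, this is a description only. Il1a, the IL-1 alpha gene, read 40.9, 33.8, 47.3 and 69.5 TPM in Experimental and 23.6, 20.0, 34.1 and 63.9 TPM in Control libraries and did not pass (limma adjusted p = 0.475). When 1 library was left out, Il1f5 passed in all 8 fits, Il1rn in 3, Il1f6 in 2 and Il1f9 in 1. Il1rn was lost without Experimental libraries 1, 3 or 4 or Control libraries 2 or 3, Il1f6 without Experimental libraries 2, 3 or 4 or Control libraries 1, 2 or 3, and Il1f9 without any library but Control library 4. Adjusted p over those fits ranged from 0.0234 to 0.0936 for Il1rn, from 0.0308 to 0.115 for Il1f6 and from 0.0329 to 0.139 for Il1f9. Without Experimental libraries 2 and 4 none of the 4 passed, with adjusted p from 0.103 to 0.324 in limma. Of 13 tested keratinocyte markers 6 had log2 changes above 0 and 7 below, with a median of -0.03, and none passed. Over all tested genes 25.5% lay above 0, and the median was -0.18. The 3 whose groups did not overlap lay higher in Experimental libraries. Over all tested genes 12.6% did not overlap in either direction, and 9.94% lay lower without overlap. Ivl, the involucrin gene, averaged 0.79 higher on the log2 scale (limma adjusted p = 0.0650), Krt1 0.78 (limma adjusted p = 0.247) and Sfn 0.48 (limma adjusted p = 0.237). Others lay lower, such as Dsp (-0.29) and Dsg1a (-0.21). All 11 tested hair genes had log2 changes below 0, with a median of -1.49, and none passed. The median of all tested genes was -0.18, with 25.5% of them above 0. Groups did not overlap for 2 hair genes, Hoxc13 and Msx2, which lay lower, as did 9.94% of all tested genes. The part of these markers in the rise was not tested. Whether the 4 genes changed more than S100a8 or S100a9 was not tested.

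**Figure D5:**
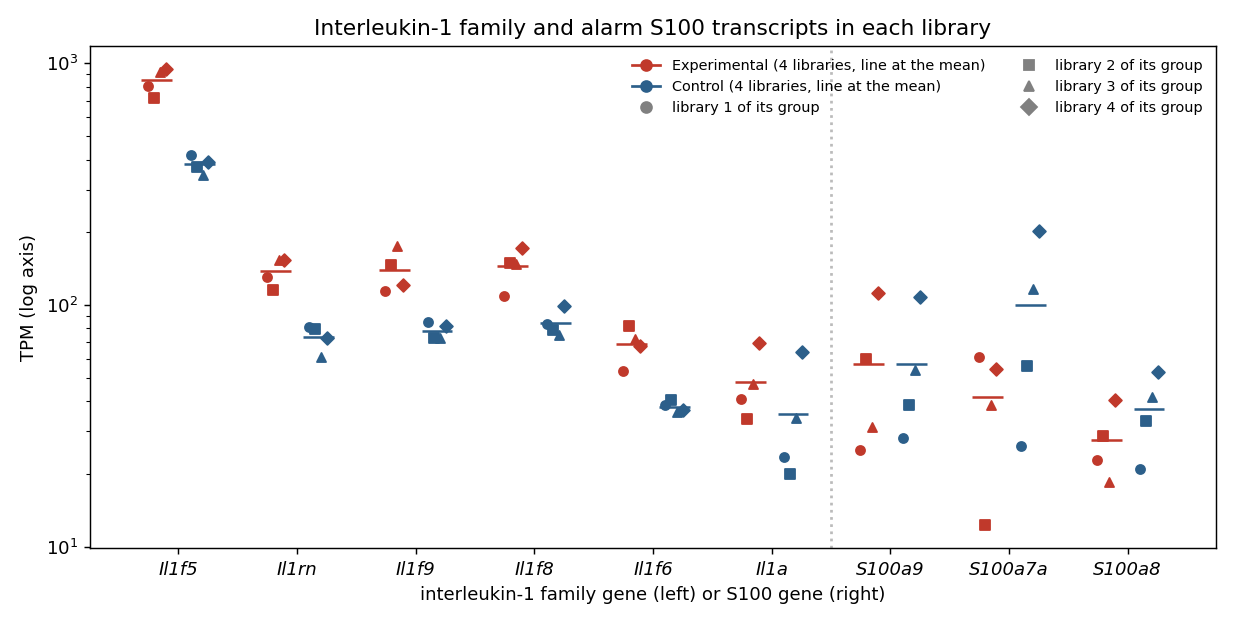
TPM (log axis) of interleukin-1 family genes and of the alarm S100 genes in the 4 Experimental libraries (red, left) and the 4 Control libraries (blue, right), with a line at each mean. The groups are apart for Il1f5, Il1rn, Il1f9, Il1f8 and Il1f6 and overlap for Il1a, S100a9, S100a7a and S100a8.

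Genes with the most similar profile were sought for the 3 members of largest log2 change. Likeness was the mean absolute difference over the 8 libraries between centred log2(TPM + 1) values, among 10670 genes. Closest to S100a7a were Padi1, a peptidylarginine deiminase gene (0.14), Fabp4, a fatty acid-binding protein gene (0.18), and Upp1, uridine phosphorylase (0.18), where the median gene was at 0.93. Closest to S100a11 were Phlda3 (0.14), the glutathione transferase genes Mgst2 (0.15) and Gsta1 (0.16), with a median of 0.58. Closest to S100a1 were St3gal4, a sialyltransferase gene (0.13), Rnase12 (0.15) and Rab3ip (0.16), with a median of 0.53. None of these 9 genes passed the test between groups in limma, with adjusted p from 0.0955 to 0.568. These likenesses include the spread among Control libraries and the difference between the groups.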

How the data were processed

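RNA of back-skin epidermis was sequenced in 4 Experimental and 4 Control libraries. Tools listed in the submitters' processing notes, with no role given, are Salmon 0.14.0, STAR, DESeq and SAMtools 1.9, and mm10 and GRCm38 are the builds listed there. The expression values deposited by the authors are log2 TPM per gene. Against the authors' mean normalized count signal per exonic base in their deposited table, 2 to the power of the value kept a flat ratio over 400 genes (0.88 to 0.99 times that of the highest bin), whereas subtracting 1 raised it to 1.43 in the lowest bin. A 0 was therefore read as 1 TPM or less. The authors' deposited expression comparison, with log2 fold changes and adjusted p-values, and their deposited PSI fraction table (MAJIQ; 236 genes) held no S100 gene. The expression comparison listed 748 genes, all with lower expression. Of 21690 identifiers 21662 matched a symbol without regard to version.

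Values were set to at least 1 TPM, transformed as log2(TPM + 1) and fitted in limma 3.58.1 (R 4.3.3; moderated variances with a trend; two-sided; adjusted by Benjamini-Hochberg over 10682 genes with mean TPM of at least 1). A fold change on this scale understates that of low genes. On simulated data with real means and spreads, the test recovered 55% of genes changed by 1 and 87% of those changed by 2 on the log2 scale among 10682 genes. The changed genes were drawn only from those with a mean log2 level above 4. Noise was drawn independently for each gene and library, without the spread that genes share among the real Control libraries. These shares therefore do not give the power of the test on the real data. p-values measure the spread between these libraries. Columns carry a group but no replicate number of the labels, so libraries were numbered in the order of the table and not paired. Tables were summarised with pandas 2.3.3 and numpy 2.4.6 in Python 3.11.15, and figures drawn with matplotlib 3.10.9. Named were all members, the other S100 genes and at most 4 passing genes per list, or else the 2 with the lowest p. The 3 closest profiles of the 3 members of largest change were named too. Added after their values were seen were Il1f8, Il1a, Il1b, Anxa1, Anxa2, Bsg, Ager, Tlr4, Cd14, the keratins and single markers. Members and lists were chosen with earlier results of these data known. Alternatives were other pseudocounts, filters, scalings, variance models, weights and subsets of libraries.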

Additional observations from a re-analysis of the deposited data

How the results depend on the processing

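Of 190 log2 changes of the 10 genes under 19 alternatives, 172 kept their direction and stayed above adjusted p of 0.05 in limma, 5 came to pass and 13 changed sign. No member passed with other pseudocounts, filters, scalings or variance models, or with 1 library left out. The number of members called higher was 2 without Control libraries 1 and 2, and the number called lower was 2 with library weights and 1 without Control libraries 3 and 4; the control pairs were set apart with these levels known, so those calls support nothing. None of the values that changed sign was called. With median centring S100a6, S100a9 and S100a16 read 0.0090, 0.15 and 0.080, and with quantile normalization S100a9 read 0.15. With library weights S100a4, S100a6 and S100a9 read -0.016, 0.033 and 0.044. Without Control libraries 3 and 4, S100a6, S100a8 and S100a9 read 0.16, 0.012 and 0.53. S100a9 ranged from -0.46 to 0.31 when 1 library was left out. Over all genes 263 passed (98 higher, 165 lower), with 385 after median centring (283 higher, 102 lower) and 386 after quantile normalization (269 higher, 117 lower), against 85 to 578 with 1 library left out, 4423 with library weights, 544 and 2595 without Control libraries 1 and 2 or 3 and 4, and 15 without Experimental libraries 2 and 4. In that last fit Il1f5, Il1rn, Il1f6 and Il1f9 no longer passed (adjusted p = 0.103, 0.184, 0.324 and 0.285). S100a13 passed with library weights (adjusted p = 0.00137). Why the counts differ was not tested. No paired analysis was possible because the columns carry no replicate number that matches the labels. Depth is unknown, and S100a8 and S100a9 are too variable here to place a bound tighter than their intervals.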

Other observations

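Within a library, the ratio of S100a11 to S100a14, the 2 most abundant members, is free of any scaling between libraries. It was 2.94, 3.78, 2.38 and 2.22 in Experimental libraries 1 to 4 and 1.60, 1.61, 0.89 and 0.43 in Control libraries 1 to 4. Each Experimental library was above each Control library. The ratio was chosen after the values were seen, and it is given without a test. The summed level of the alarm members S100a7a, S100a8 and S100a9 was 109, 101, 88.7 and 207 TPM in Experimental and 75.1, 127, 212 and 364 TPM in Control libraries, with overlap.

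Markers of other cells were summed as well. Melanocyte markers, led by Dct, ran from 34.9 to 83.8 TPM in Experimental and from 60.4 to 150.0 TPM in Control libraries. Schwann cell markers, led by Erbb3, ran from 34.4 to 50.7 TPM in Experimental and from 41.2 to 57.8 TPM in Control libraries, and S100b, a marker of that lineage, was at 0 throughout. Erythroid genes, led by Hbb-bs, ran from 222 to 4178 TPM in Experimental and from 182 to 9586 TPM in Control libraries.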
